A study of Mus musculus with 30 samples.

Results

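Transcript levels of 10 genes of the Notch pathway were examined across haematopoietic differentiation in mouse cells. They were the receptors Notch1, Notch2 and Notch4, the ligands Dll1, Dll4, Jag1 and Jag2, and the targets Hes1, Hey1 and Hey2. The genes were chosen by symbol from the 14685 genes of the deposited table, and each of the 10 was present. RNA was sequenced from 5 populations of E14 embryonic stem cells (ESC) and their progeny, from 3 genotypes and in 2 replicates, which made 30 samples. The genotypes were unmodified cells (WT), cells in which both copies of the transcription factor Sp1 lack the part that binds DNA (Sp1_deltaDBD), which still make a truncated Sp1 protein, and cells lacking the related factor Sp3 (Sp3KO). Each genotype was a single E14 line, so a difference between genotypes cannot be told apart from a difference between lines. Flk1 cells, mesodermal precursors carrying the receptor Flk1, were enriched on magnetic columns from embryoid bodies. They were plated in blast culture, from which KIT+ CD41- Tie2+ cells (HE1, an early haemogenic endothelium), KIT+ CD41+ Tie2+ cells (HE2, a later one) and KIT+ CD41+ Tie2- cells (progenitors) were sorted. The labels call the libraries duplicates, and the study's methods call them biological replicates.

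Notch receptors are membrane proteins that are cut when a neighbouring cell presents a Delta-like or Jagged ligand. The freed intracellular part enters the nucleus, joins the DNA-binding protein RBPJ and switches on target genes, among them the repressors of the Hes and Hey families. In the embryo the pathway is known for arterial endothelium and for the formation of blood cells from haemogenic endothelium. Sp1 and Sp3 bind GC-rich boxes that are common in promoters.

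The levels were FPKM, fragments scaled to transcript length and library size, which were quantile normalised by the authors, and the median was 7.19 FPKM in every sample. The table holds no read counts. Depth is therefore unknown, and the spread between replicates was the measure of error. In bulk RNA, fewer cells of a type and less RNA per cell cannot be told apart. Tests were made with limma on log2(FPKM + 0.1) in a single fit, two-sided, with Benjamini-Hochberg adjustment over 14525 genes and a threshold of 0.05, and fold changes are on that scale, which understates the change of low genes. The smallest p that an exact permutation test allows for 2 against 2 samples is 0.3333. Sp3 itself lay between 3.38 and 7.79 FPKM in the 10 Sp3KO samples and between 25.9 and 58.1 FPKM in the 10 WT samples. The gene-level value of Sp1 cannot show a deleted domain, and it lay between 14.8 and 40.5 FPKM in Sp1_deltaDBD against 24.9 and 52.4 FPKM in WT. It was lower in Sp1_deltaDBD Flk1 (limma adjusted p = 0.0311), HE2 (0.0404) and progenitor cells (0.00788). Sp3 was higher in Sp1_deltaDBD HE1 only, at 40.3 and 45.3 FPKM against 25.9 and 26.3 FPKM in WT. That difference was 0.71 on the log2 scale (SE 0.19, limma adjusted p = 0.021). The 8 endothelial markers were summed to between 1098 and 1564 FPKM in HE1 of all genotypes and to between 14.6 and 52.1 FPKM in Flk1 cells. The 8 haematopoietic markers reached between 205.6 and 394.8 FPKM in progenitors. In WT HE1 they summed to 43.5 and 55.2 FPKM, below the endothelial sums of 1101 and 1564 FPKM there. The lists hold different genes, so the sums do not measure shares of cell types. The endothelial list holds Tek (Tie2) and the haematopoietic list Itga2b (CD41), so part of this follows from the sort. WT HE1 replicate 1 also held 1738 FPKM of 5 smooth muscle markers and 711 FPKM of 5 epithelial markers. Replicate 2 had 359 and 63.0 FPKM of them, so the label does not cover all transcripts of HE1.

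Promoter windows were read for the members because Sp1 and Sp3 bind GC boxes and RBPJ carries the Notch signal to DNA. RefSeq windows of 300 bases around a gene start, of which the last 50 lie after it, were matched for 8 of the 10 members on build GRCm38.p6, with 9 windows, since Dll1 has 2 starts. Hes1 and Hey1 were not matched. Both strands were searched for the core GC box (GGGCGG or CCGCCC) and for the core word bound by RBPJ (TGGGAA or TTCCCA), and no RBPJ word overlapped a GC box. Shown are the windows of the 4 members that fell in level both from HE1 to HE2 and from HE2 to progenitors in WT cells, with the words found in capitals.
Notch1 (chr2:26503773-26504072, minus strand): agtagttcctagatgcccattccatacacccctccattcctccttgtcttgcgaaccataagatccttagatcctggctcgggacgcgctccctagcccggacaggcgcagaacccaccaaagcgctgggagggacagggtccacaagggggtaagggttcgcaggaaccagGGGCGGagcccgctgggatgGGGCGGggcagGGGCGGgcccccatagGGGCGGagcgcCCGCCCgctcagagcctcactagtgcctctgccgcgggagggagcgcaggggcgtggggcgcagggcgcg
Notch4 (chr17:34564045-34564344, plus strand): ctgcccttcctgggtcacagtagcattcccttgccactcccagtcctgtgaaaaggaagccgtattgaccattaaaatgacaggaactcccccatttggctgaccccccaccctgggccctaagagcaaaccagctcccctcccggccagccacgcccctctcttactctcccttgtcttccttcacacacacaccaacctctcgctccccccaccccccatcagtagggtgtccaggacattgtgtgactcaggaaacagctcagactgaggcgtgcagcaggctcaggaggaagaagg
Dll4 (chr2:119325534-119325833, plus strand): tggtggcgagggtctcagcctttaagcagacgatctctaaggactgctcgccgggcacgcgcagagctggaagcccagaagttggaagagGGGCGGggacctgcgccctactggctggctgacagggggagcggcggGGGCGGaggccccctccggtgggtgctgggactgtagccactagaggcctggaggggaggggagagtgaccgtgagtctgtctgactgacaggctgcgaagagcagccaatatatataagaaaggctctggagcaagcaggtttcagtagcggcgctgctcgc
Hey2 (chr10:30842734-30843033, minus strand): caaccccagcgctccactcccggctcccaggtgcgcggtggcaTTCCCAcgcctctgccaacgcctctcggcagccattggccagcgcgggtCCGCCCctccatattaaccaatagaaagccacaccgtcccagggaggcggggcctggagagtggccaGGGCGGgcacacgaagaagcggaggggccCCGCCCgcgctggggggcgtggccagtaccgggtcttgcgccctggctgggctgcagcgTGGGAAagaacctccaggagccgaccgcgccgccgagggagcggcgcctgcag
The Notch1 window held 5 GC boxes, all within the 78 bases before the start. Notch4 held none, Dll4 held 2 and Hey2 held 3. Hey2 was also the single member window with an RBPJ word, which it held 2 times, once 207 bases and once 3 bases before the start. Among the other members Notch2 had 7 GC boxes and Jag2 had 5, of which a pair overlapped, while the windows of Dll1 and Jag1 had none. In all, 5 of the 9 member windows held a GC box and 1 held an RBPJ word, against 35.7% and 25.6% of 32851 RefSeq promoter windows of that length. The median GC content of those windows was 52.7%, and that of the member windows lay between 55.7% and 86%. The shares are thus not matched for GC content. A word in a window is a description of the letters and does not show that a factor binds there.

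**Figure D1:**
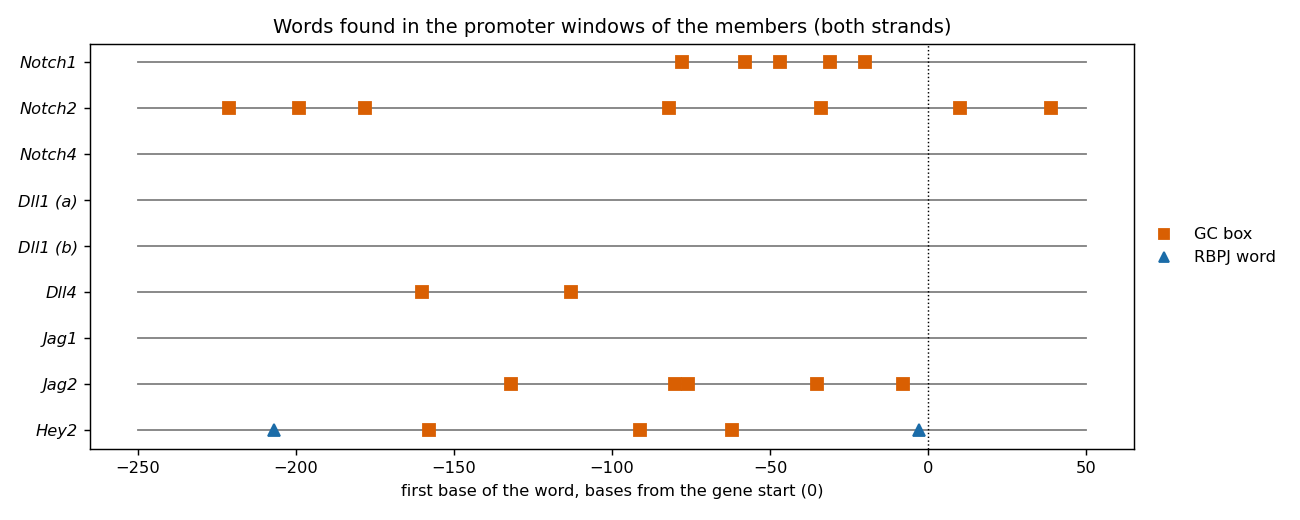
Position of each GC box (squares) and RBPJ word (triangles) in the 9 promoter windows, in bases from the gene start; each grey line is one window and Dll1 has 2. The 5 GC boxes of Notch1 cluster next to the start, Notch4, Dll1 and Jag1 have no word, and Hey2 alone carries both kinds.

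In WT cells the members followed separate courses. Notch1, Notch4, Dll4 and Hey2 were highest in HE1, Notch2, Hes1 and Hey1 were highest in Flk1 cells, and Dll1 was highest in ESC. The mean of Jag1 and Jag2 was highest in HE1, but the ESC samples overlapped those of HE1 for Jag1 and for Jag2.

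Notch1, the receptor most closely tied to blood stem cell formation, stood at 7.91 and 7.21 FPKM in WT ESC, 9.07 and 7.91 in Flk1 cells, 52.6 and 61.1 in HE1, 20.8 and 26.1 in HE2, then 3.71 and 3.55 in progenitors. The ESC and Flk1 samples overlapped, and every other neighbouring pair in the order of levels was separate. Notch4, a receptor best known from endothelium, had 1.67 and 3.05 FPKM in ESC, 0.153 and 0.175 in Flk1 cells, 10.4 and 13.8 in HE1, 2.31 and 3.08 in HE2, then 0.412 and 0.367 in progenitors. Its HE1 samples were above all others and its HE2 and ESC samples overlapped. Notch2, a broadly expressed receptor, had 9.21 and 9.21 FPKM in ESC, 25.1 and 28.0 in Flk1 cells, 13.6 and 10.4 in HE1, 10.5 and 10.9 in HE2, then 11.1 and 10.3 in progenitors. It was highest in Flk1 cells and its HE1, HE2 and progenitor samples overlapped.

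Among the ligands, Dll4, the Delta-like ligand of arterial endothelium, had 5.07 and 3.10 FPKM in WT HE1 and 1.06 and 0.441 in HE2. In progenitors it had 0.108 and 0.0771 FPKM, and no ESC or Flk1 sample was above 0.0234. The HE1 samples of Dll4 thus stood above all others. Dll1, a ligand with roles in somite formation, had 1.35 and 1.84 FPKM in ESC, 1.296 and 0.586 in Flk1 cells, 0.419 and 0.562 in HE1, 0.211 and 0.193 in HE2, then 0.0808 and 0.0586 in progenitors. Neighbours in this order did not overlap, although none of the 4 steps of Dll1 passed the test. Jag1, a Jagged ligand of arterial and other tissues, had 7.67 and 7.83 FPKM in ESC, 1.77 and 1.38 in Flk1 cells, 7.61 and 8.60 in HE1, 4.17 and 4.43 in HE2, then 4.85 and 8.21 in progenitors. Its Flk1 samples were the lowest and did not overlap any other population. The related ligand Jag2 had 7.61 and 3.45 FPKM in ESC, 2.23 and 1.69 in Flk1 cells, 9.56 and 6.32 in HE1, 4.18 and 4.24 in HE2, then 2.17 and 1.998 in progenitors. Its ESC replicates were more than 2-fold apart and overlapped those of HE1 and HE2.

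Among the targets, Hes1 had 11.6 and 7.34 FPKM in WT ESC, 60.2 and 62.1 in Flk1 cells, 16.1 and 32.9 in HE1, 7.81 and 40.5 in HE2, then 4.94 and 16.6 in progenitors. Replicate 2 was the higher of the 2 in HE1, HE2 and progenitors, so that these populations overlapped. The same 3 populations also differed between replicates in the 5 smooth muscle markers, which summed to 1738 and 359 FPKM in HE1, 459.6 and 74.9 in HE2, then 276.3 and 87.5 in progenitors, and in the 5 epithelial markers, at 711 and 63.0, 216.5 and 14.2, and 138.0 and 34.5 FPKM. Replicate 1 was the higher for both marker lists, and the part of these cells in the Hes1 values was not tested. Hey1 had 1.96 and 1.58 FPKM in ESC, 21.03 and 24.5 in Flk1 cells, 6.66 and 10.4 in HE1, 4.39 and 7.09 in HE2, then 2.02 and 2.90 in progenitors. Hey2, which acts with Hey1 in arterial development, had 0.0506 and 0.116 FPKM in ESC, 3.90 and 5.83 in Flk1 cells, 7.36 and 8.73 in HE1, 1.65 and 1.71 in HE2, then 0.208 and 0.135 in progenitors. Neighbouring levels of Hey2 were separate, whereas those of Hey1 overlapped between HE1 and HE2.

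**Figure D2:**
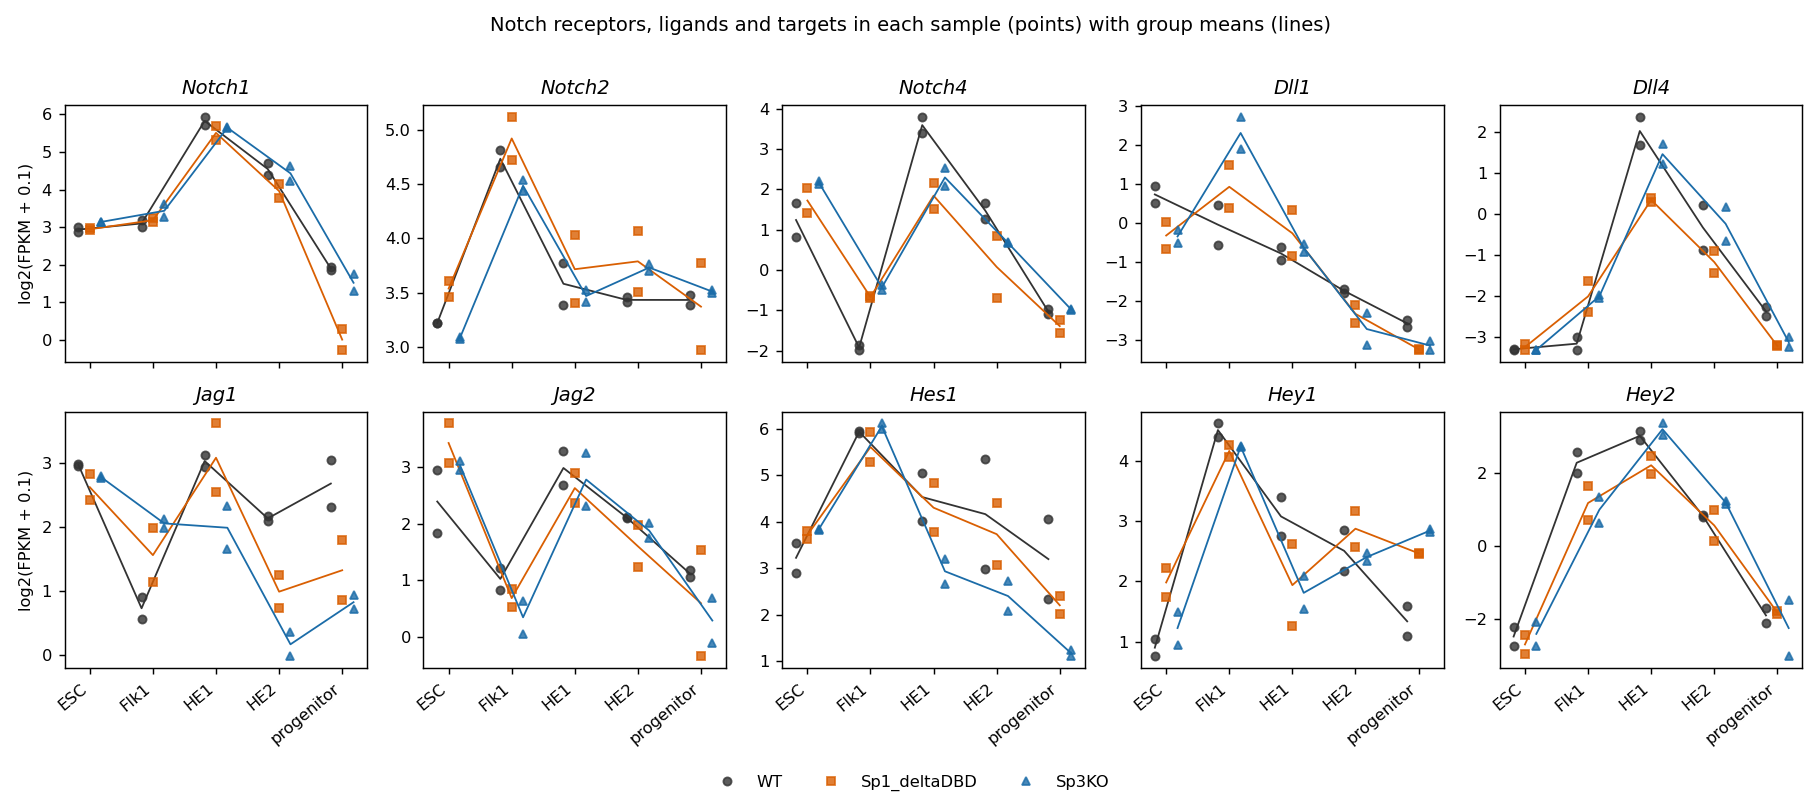
Level of each member in each sample, as log2(FPKM + 0.1), in the 5 populations; points are the 2 replicates of WT (black circles), Sp1_deltaDBD (orange squares) and Sp3KO (blue triangles), and lines join group means. Notch1, Notch4, Dll4 and Hey2 peak in HE1 in WT cells, and Notch2, Hes1 and Hey1 peak in Flk1 cells.

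The steps between successive WT populations were tested to see which members changed. From ESC to Flk1 cells 7 of 10 members changed, against 52.2% of all genes. Notch2, Hes1, Hey1 and Hey2 rose, by 1.52 (SE 0.23), 2.71 (SE 0.62), 3.61 (SE 0.36) and 4.76 (SE 0.45) on the log2 scale, while Notch4 fell by 3.16 (SE 0.39), Jag1 fell by 2.24 (SE 0.37) and Jag2 fell by 1.36 (SE 0.49). From Flk1 cells to HE1 again 7 members changed, against 53.0% of all genes. Notch4 rose by 5.51 (SE 0.39) and Dll4 by 5.19 (SE 0.38), Notch1 by 2.73 (SE 0.20), Jag1 by 2.30 (SE 0.37) and Jag2 by 1.95 (SE 0.49), whereas Notch2 fell by 1.15 (SE 0.23) and Hey1 fell by 1.43 (SE 0.36). Both WT Flk1 samples of Dll4 lay at or near 0, with replicate 2 at the lowest value of its sample, so its fold is no measured ratio. From HE1 to HE2 4 members fell, against 10.2% of all genes, and none rose. These were Notch1, which fell by 1.28 (SE 0.20), Notch4, which fell by 2.12 (SE 0.39), Dll4, which fell by 2.36 (SE 0.38), and Hey2, which fell by 2.19 (SE 0.45). From HE2 to progenitors 5 members fell, against 7.78% of all genes, and again none rose. Notch1 fell by 2.65 (SE 0.20), Notch4 fell by 2.50 (SE 0.39), Dll4 fell by 2.05 (SE 0.38), Hey1 fell by 1.17 (SE 0.36) and Hey2 fell by 2.73 (SE 0.45). The limma adjusted p was 0.027 for Jag2 and 0.0335 for Hey1 in these steps, and 0.00262 or lower for the other 21 calls. The call of Jag2 was lost without ESC replicate 1 (a value of -0.80, limma adjusted p = 0.278), Flk1 replicate 1 (0.0507) or Flk1 replicate 2 (0.142), and that of Hey1 without HE2 replicate 2 (0.248) or progenitor replicate 1 (0.247), or with the WT samples fitted alone (0.0551). The 23 calls were kept with a pseudocount of 1, but the rises of Notch4 and Dll4 from Flk1 cells to HE1 became 3.48 and 2.30 and that of Hey2 from ESC to Flk1 cells became 2.42, so the sizes of steps that start near 0 depend on the pseudocount.

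Each mutant was then compared with WT in each population to see in which populations the pathway differed in either mutant. Both mutants were set against the same WT samples, so their comparisons are not independent. Of 50 pairs of member and population, 6 were changed in Sp1_deltaDBD, against 8.02% of pairs over all genes. In Sp3KO 10 of 50 were changed, against 11.5% of pairs over all genes. When the 6 samples of a population were fitted alone, 1 of these 16 changes passed the test, namely that of Notch4 in Sp3KO Flk1 cells, and the other 15 kept their size with a higher adjusted p. By a fold of group means above 2 alone, with no test, 2, 3, 3, 2 and 4 members differed in Sp1_deltaDBD ESC, Flk1, HE1, HE2 and progenitor cells, against 7.54%, 8.22%, 9.98%, 9.66% and 10.3% of all genes. In Sp3KO 1, 5, 4, 2 and 3 members did so, against 8.71%, 9.64%, 10.8%, 11.1% and 11.2%.

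**Figure D3:**
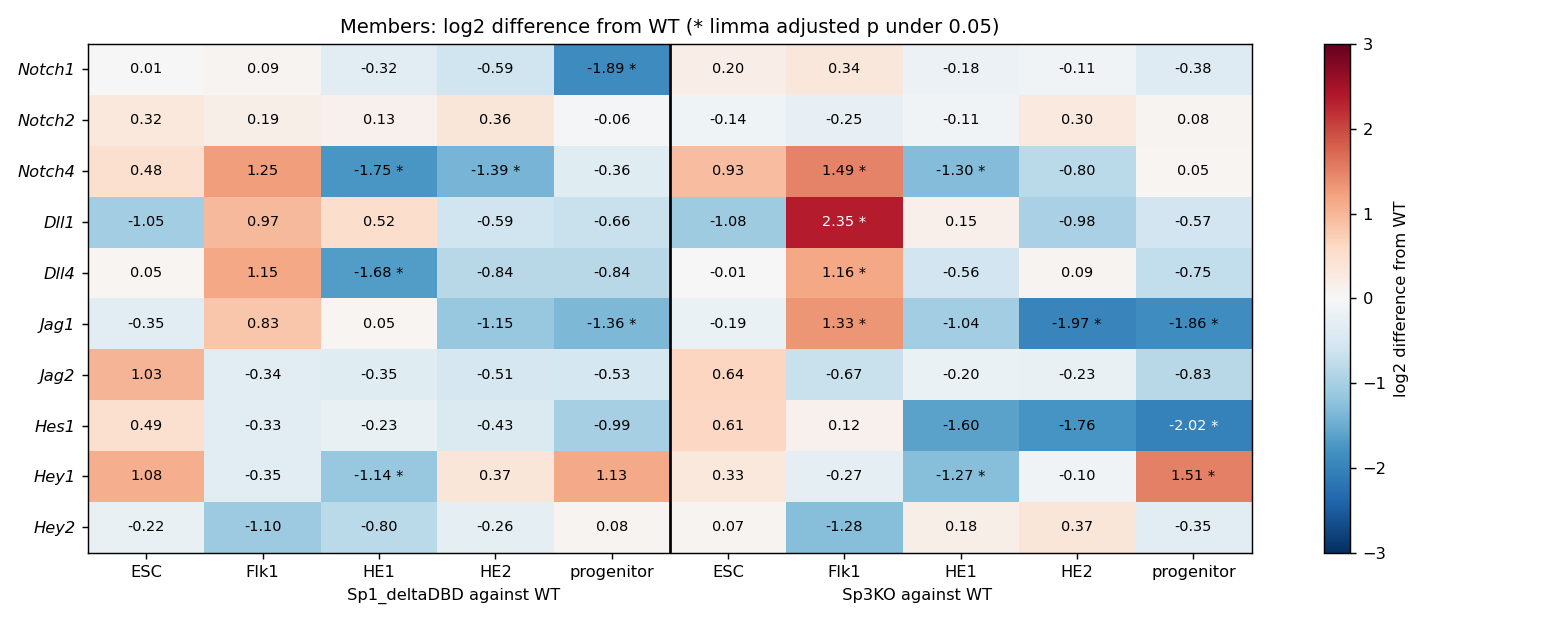
Difference of each mutant from WT on the log2 scale for the 10 members (rows) in the 5 populations (columns), red for higher and blue for lower; asterisks mark limma adjusted p under 0.05. Marked cells are absent in ESC, are all red in Flk1 cells and, apart from Hey1 in Sp3KO progenitors, are all blue in HE1, HE2 and progenitors.

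In ESC no member passed the limma test in Sp1_deltaDBD, where 6.06% of all genes did and 2 members had an unadjusted p under 0.05. The count was also 0 in Sp3KO, against 11.3% of all genes, with 2 members at an unadjusted p under 0.05. The largest differences were those of Hey1 in Sp1_deltaDBD, at 1.08 (SE 0.36, limma adjusted p = 0.0817), and of Dll1 in Sp3KO, at -1.08 (SE 0.46, limma adjusted p = 0.143). With the replicate number as a block Hey1 passed in Sp1_deltaDBD (limma adjusted p = 0.0496), which made the count 1.

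In Flk1 cells 4 members rose in Sp3KO, as did 6.69% of all genes, and these were the ligands Dll1, Dll4 and Jag1 and the receptor Notch4. Dll1 stood at 3.65 and 6.55 FPKM in Sp3KO and at 1.296 and 0.586 FPKM in WT. It rose by 2.35 on the log2 scale (SE 0.46, limma adjusted p = 0.0028). Jag1 had 4.27 and 3.87 FPKM in Sp3KO against 1.77 and 1.38 FPKM in WT, and rose by 1.33 (SE 0.37, limma adjusted p = 0.0242). Both mutant samples were above both WT samples for each gene. Notch4 had 0.608 and 0.675 FPKM against 0.153 and 0.175 FPKM in WT, and rose by 1.49 (SE 0.39, limma adjusted p = 0.0161). Dll4 had 0.141 and 0.155 FPKM against 0.0234 FPKM and the lowest value of the sample in WT, and rose by 1.16 (SE 0.38, limma adjusted p = 0.0495). Both stayed under 1 FPKM in Flk1 cells. In Sp1_deltaDBD Flk1 cells no member passed the limma test, where 5.54% of all genes did, and 5 members had an unadjusted p under 0.05. There Notch4 had 0.517 and 0.539 FPKM, a difference of 1.25 from WT (SE 0.39, limma adjusted p = 0.0647), and Dll4 had 0.0911 and 0.220 FPKM, a difference of 1.15 (SE 0.38, limma adjusted p = 0.0832). The 8 endothelial markers moved with these values, since 5 rose in Sp3KO, with a median of 1.32 on the log2 scale and sums of 25.5 and 26.1 FPKM against 14.6 and 15.7 FPKM in WT, and 6 rose and 1 fell in Sp1_deltaDBD, with a median of 1.81 and sums of 24.1 and 52.1 FPKM. In Sp3KO the pluripotency markers Sox2 and Dppa5a and the mesoderm markers Mesp1 and Tbx6 rose as well, 2 of 6 in each list. The pluripotency sums lay between 194.0 and 205.2 FPKM against 43.4 and 53.0 FPKM in WT. Of the 6 erythroid markers 2 fell in Sp3KO, Gata1 and Hbb-bh1, with a median of -0.13. The part of these cells in the member values was not tested. Without WT replicate 2 the limma adjusted p of Dll1 was 0.0749. The calls of the other 3 were lost without any 1 of the 4 samples, with limma adjusted p of 0.0613 to 0.203 for Jag1, 0.0898 to 0.0964 for Notch4 and 0.11 to 0.289 for Dll4. With a pseudocount of 1 the differences of Notch4 and Dll4 in Sp3KO were 0.50 (limma adjusted p = 0.196) and 0.18 (0.57), and with GC and length correction they were 1.10 (0.0763) and 1.05 (0.0882), so neither passed. Dll4 also failed with chromosome centring (limma adjusted p = 0.059) and when the replicate number was a block (0.0752).

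In HE1, where Notch4 and Dll4 peaked, 3 members were lower in Sp1_deltaDBD, as were 4.35% of all genes. Notch4 had 4.39 and 2.77 FPKM against 10.4 and 13.8 FPKM in WT, and fell by 1.75 on the log2 scale (SE 0.39, limma adjusted p = 0.0069). Dll4 had 1.21 and 1.13 FPKM against 5.07 and 3.10 FPKM, and fell by 1.68 (SE 0.38, limma adjusted p = 0.00772). Both mutant samples lay below both WT samples. Hey1 had 2.29 and 6.04 FPKM against 6.66 and 10.4 FPKM, and fell by 1.14 (SE 0.36, limma adjusted p = 0.048). Its higher mutant sample came close to its lower WT sample. Notch1 stood at 40.1 and 51.5 FPKM against 52.6 and 61.1 FPKM, a difference of -0.32 (SE 0.20, limma adjusted p = 0.373). Of the 8 endothelial markers 1 rose and none fell, with a median of -0.00 on the log2 scale and sums of 1177 and 1518 FPKM against 1101 and 1564 FPKM in WT. Of the 6 erythroid markers 2 fell, Hba-x and Hbb-y, with a median of -1.72 and sums of 21.3 and 10.8 FPKM against 102.1 and 43.3 FPKM. The fibroblast and epithelial lists had medians of -2.35 and -1.54 with no marker past the test, and the part of these cells in the member values was not tested. Dll4 lost its call without WT replicate 1 (limma adjusted p = 0.109) or Sp1_deltaDBD replicate 2 (0.0674), and Notch4 without WT replicate 2 (0.0595) or Sp1_deltaDBD replicate 2 (0.112). Hey1 lost its call without WT replicate 1 (limma adjusted p = 0.0626), WT replicate 2 (0.278) or Sp1_deltaDBD replicate 1 (0.439), without which its difference was -0.46, and its difference was -1.82 without Sp1_deltaDBD replicate 2. It also failed without the intensity trend (limma adjusted p = 0.0579) and with GC and length correction (0.0632).

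In Sp3KO HE1 2 members were lower, as were 4.87% of all genes. Notch4 had 5.63 and 4.10 FPKM, below both WT samples, and fell by 1.298 (SE 0.39, limma adjusted p = 0.0359). Hey1 had 4.14 and 2.79 FPKM, again below both WT samples, and fell by 1.27 (SE 0.36, limma adjusted p = 0.0272). Dll4, at 2.23 and 3.14 FPKM, overlapped WT, and its difference of -0.56 (SE 0.38, limma adjusted p = 0.372) did not pass the test. Jag1, at 4.92 and 3.05 FPKM, and Hes1, at 9.08 and 6.27 FPKM, lay below both WT samples without passing, with differences of -1.04 (SE 0.37, limma adjusted p = 0.0766) and -1.60 (SE 0.62, limma adjusted p = 0.105). Of the 8 haematopoietic markers 2 rose in Sp3KO HE1, and the list summed to 104.9 and 99.8 FPKM there against 43.5 and 55.2 FPKM in WT. The erythroid marker Epor rose as well. No endothelial marker passed, with a median of -0.27 and sums of 1106 and 1098 FPKM against 1101 and 1564 FPKM in WT. The fibroblast list had a median of -1.95 with no marker past the test. No smooth muscle or epithelial marker passed the test, while their medians were -2.11 and -2.01 and their sums 208.1 and 138.6 FPKM against 1738 and 359 FPKM in WT and 72.6 and 25.6 FPKM against 711 and 63.0 FPKM in WT. The part of these cells in the member values was not tested. Notch4 lost its call without any 1 of the 4 samples (limma adjusted p of 0.0735 to 0.245), and Hey1 without WT replicate 2 (0.19) or Sp3KO replicate 2 (0.238). With the replicate number as a block Hes1 (limma adjusted p = 0.0311) and Jag1 (0.0426) passed as well, which made the count 4.

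In HE2 1 member was lower in each mutant, as were 4.97% of all genes in Sp1_deltaDBD and 6.84% in Sp3KO. In Sp1_deltaDBD this was Notch4, at 1.70 and 0.518 FPKM against 2.31 and 3.08 FPKM in WT, which fell by 1.39 (SE 0.39, limma adjusted p = 0.0266). In Sp3KO it was Jag1, at 0.884 and 1.18 FPKM against 4.17 and 4.43 FPKM, with a limma adjusted p of 0.00226 that stayed under the threshold without each sample in turn. Jag1 was also below both WT samples in Sp1_deltaDBD, at 1.57 and 2.27 FPKM, a difference of -1.15 (SE 0.37, limma adjusted p = 0.0566). Hes1 stood at 4.11 and 6.54 FPKM in Sp3KO against 7.81 and 40.5 FPKM in WT, a difference of -1.76 (SE 0.62, limma adjusted p = 0.064). Of the 8 endothelial markers Emcn fell in Sp3KO, with a median of -0.47. Their sums were 526.0 and 545.8 FPKM in Sp3KO, 691.7 and 524.1 in Sp1_deltaDBD, where the median was -0.33, and 648.1 and 811.7 in WT. The erythroid marker Epor and the pluripotency marker Dppa5a rose in Sp3KO, and the pluripotency marker Zfp42 rose in Sp1_deltaDBD. The fibroblast list had a median of -1.83 in Sp1_deltaDBD and -0.47 in Sp3KO, with no marker past the test. The part of these cells in the member values was not tested. The call of Notch4 was lost without WT replicate 1 (limma adjusted p = 0.0636), WT replicate 2 (0.14) or Sp1_deltaDBD replicate 2 (0.435). Its difference was -0.62 without Sp1_deltaDBD replicate 2, -2.17 without Sp1_deltaDBD replicate 1 and -0.86 with a pseudocount of 1. With the replicate number as a block Jag1 in Sp1_deltaDBD (limma adjusted p = 0.0318) and Hes1 in Sp3KO (0.0176) passed, which made both counts 2.

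In progenitors the receptor Notch1 and the ligand Jag1 were lower in Sp1_deltaDBD, 2 of 10 members against 5.04% of all genes. Notch1 had 0.732 and 1.12 FPKM against 3.71 and 3.55 FPKM in WT, and fell by 1.89 on the log2 scale (SE 0.20, limma adjusted p = 9.63e-06). This call stayed under the threshold without each sample in turn. In Sp3KO progenitors Notch1 had 2.34 and 3.27 FPKM, a difference of -0.38 from WT (SE 0.20, limma adjusted p = 0.276). Set directly against each other, Notch1 was higher in Sp3KO than in Sp1_deltaDBD progenitors by 1.51 (SE 0.20, limma adjusted p = 9.59e-05). It was the 1 member past the threshold between the mutants in this population, where 5.51% of all genes were higher in Sp3KO. In ESC, Flk1, HE1 and HE2 cells no member passed the limma test between the mutants, where 9.67%, 7.39%, 13.6% and 15.9% of all genes did, and 1, 1, 4 and 4 members had an unadjusted p under 0.05.

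Jag1 had 1.71 and 3.38 FPKM in Sp1_deltaDBD progenitors and 1.54 and 1.82 FPKM in Sp3KO progenitors, against 4.85 and 8.21 FPKM in WT. It fell by 1.36 in Sp1_deltaDBD (SE 0.37, limma adjusted p = 0.0266). In Sp3KO it fell by 1.86 (SE 0.37, limma adjusted p = 0.00474), as 1 of 3 members changed against 8.65% of all genes. All mutant samples were below both WT samples. The targets Hes1 and Hey1 changed in opposite directions in Sp3KO progenitors. Hes1 had 2.27 and 2.05 FPKM against 4.94 and 16.6 FPKM, and fell by 2.02 (SE 0.62, limma adjusted p = 0.0477). Hey1 had 6.93 and 7.20 FPKM against 2.02 and 2.90 FPKM, and rose by 1.51 (SE 0.36, limma adjusted p = 0.0129). In Sp1_deltaDBD progenitors Hey1 was likewise above both WT samples, at 5.38 and 5.47 FPKM, but its difference of 1.13 (SE 0.36, limma adjusted p = 0.0546) did not pass. Dll1 and Dll4 lay at the lowest value of their sample in all 4 mutant progenitor samples. In Sp3KO progenitors 2 of 8 haematopoietic markers, Coro1a and Ptprc, and 1 of 6 erythroid markers, Hbb-y, fell, with medians of -0.47 and -1.05 and erythroid sums of 1570 and 3508 FPKM against 13660 and 4537 FPKM in WT. Of the 8 endothelial markers 1 rose and 1 fell in Sp3KO progenitors, with a median of 0.28. In Sp1_deltaDBD progenitors 1 of 5 smooth muscle markers, Myl9, and 1 of 8 endothelial markers, Eng, fell, with medians of -1.25 and -0.51. The fibroblast and epithelial lists had medians of -3.43 and -0.99 there with no marker past the test. Fibroblast sums were 3.15 and 1.18 FPKM in Sp1_deltaDBD progenitors against 42.7 and 14.6 FPKM in WT. The part of these cells in the member values was not tested. Jag1 lost its call in Sp1_deltaDBD without WT replicate 2 (limma adjusted p = 0.214) or Sp1_deltaDBD replicate 1 (-0.88, limma adjusted p = 0.256), and in Sp3KO without WT replicate 2 (0.0582) or Sp3KO replicate 1 (0.0513). Hes1 lost its call without WT replicate 2 (-1.16, limma adjusted p = 0.381), Sp3KO replicate 1 (0.172) or Sp3KO replicate 2 (0.18), as well as with a pseudocount of 1 (0.0711), without the intensity trend (0.0641) and with chromosome centring (0.0526), and Hey1 without WT replicate 1 (0.105), Sp3KO replicate 1 (0.0742) or Sp3KO replicate 2 (0.0727). With the replicate number as a block Hey1 passed in Sp1_deltaDBD progenitors too (limma adjusted p = 0.0331), which made the count 3.

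Notch2, Jag2 and Hey2 passed no comparison with WT. Over the 10 comparisons the log2 differences of Notch2 lay between -0.25 and 0.36, those of Jag2 between -0.83 and 1.03 and those of Hey2 between -1.28 and 0.37. Hey2 had 1.54 and 3.04 FPKM in Sp1_deltaDBD and 2.46 and 1.47 FPKM in Sp3KO Flk1 cells, below both WT samples. Its limma adjusted p there was 0.178 and 0.0677.

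The step between populations was then compared between genotypes, with each mutant's step set against that of WT. Such a difference equals the mutant's difference from WT in the later population minus that in the earlier one. It thus uses the values given above again and is no independent result. Over 40 pairs of member and step, 2 differed in Sp1_deltaDBD and 3 in Sp3KO, against 0.824% and 1.38% of pairs over all genes. In this test the step from Flk1 cells to HE1 was lower than in WT for 2 of 10 members in Sp1_deltaDBD, against 0.682% of all genes, and for 2 of 10 in Sp3KO, against 1.92%. Notch4 rose by 5.51 on the log2 scale at this step in WT, by 2.51 (SE 0.39) in Sp1_deltaDBD and by 2.73 (SE 0.39) in Sp3KO. The step was smaller by a log2 difference of -2.999 (SE 0.55, limma adjusted p = 0.00878) in Sp1_deltaDBD and -2.79 (SE 0.55, limma adjusted p = 0.00906) in Sp3KO. Dll4 rose by 5.19 in WT and by 2.36 (SE 0.38) in Sp1_deltaDBD, and the difference between these steps was -2.84 (SE 0.53, limma adjusted p = 0.0108). In Sp3KO it rose by 3.47 (SE 0.38), a difference of -1.72 (SE 0.53, limma adjusted p = 0.0753) that did not pass, though it did with the replicate number as a block (0.0439). Since Dll4 lay at or near 0 in WT Flk1 cells, the size of its difference depends on the pseudocount. With a pseudocount of 1 it was -1.39 for Dll4 in Sp1_deltaDBD, and for Notch4 it was -1.92 in Sp1_deltaDBD and -1.65 in Sp3KO, and the calls were kept. Jag1 rose by 2.30 in WT, whereas it stood at a step of -0.07 (SE 0.37) in Sp3KO, and the difference of -2.37 (SE 0.52, limma adjusted p = 0.0164) passed. Notch1 rose at this step in WT and its difference between steps did not pass in Sp1_deltaDBD (-0.40, SE 0.29, limma adjusted p = 0.601) or in Sp3KO (-0.52, SE 0.29, limma adjusted p = 0.354).

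At the step from ESC to Flk1 cells 1 member had a higher step in Sp3KO than in WT, against 0.998% of all genes. Dll1 rose by 2.65 (SE 0.46) in Sp3KO and had a step of -0.78 (SE 0.46) in WT, and the difference was 3.43 (SE 0.65, limma adjusted p = 0.0118), or 2.24 with a pseudocount of 1. No member differed at this step in Sp1_deltaDBD by limma, against 1.74% of all genes, with 3 members at an unadjusted p under 0.05. At the steps from HE1 to HE2 and from HE2 to progenitors no member differed in either mutant by limma, where 0.00688% and 0.0207% of all genes did in Sp1_deltaDBD and 0% and 0.0275% in Sp3KO. At those steps 2 and 1 members had an unadjusted p under 0.05 in Sp1_deltaDBD, and 1 and 1 in Sp3KO. Leaving out 1 sample ended each of the 5 differences. Notch4 was lost without HE1 replicate 2 of Sp1_deltaDBD (limma adjusted p = 0.0502) and, in Sp3KO, without HE1 replicate 2 (0.0501), and Dll4 without WT Flk1 replicate 2 (0.0614) or WT HE1 replicate 1 (0.0553). Jag1 was lost without Sp3KO Flk1 replicate 1 (limma adjusted p = 0.0731), WT Flk1 replicate 2 (0.0846) or Sp3KO HE1 replicate 2 (0.0913), and Dll1 without WT Flk1 replicate 2 (0.0794), ESC replicate 1 of Sp3KO (0.0552) or Flk1 replicate 2 of Sp3KO (0.0544).

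**Figure D4:**
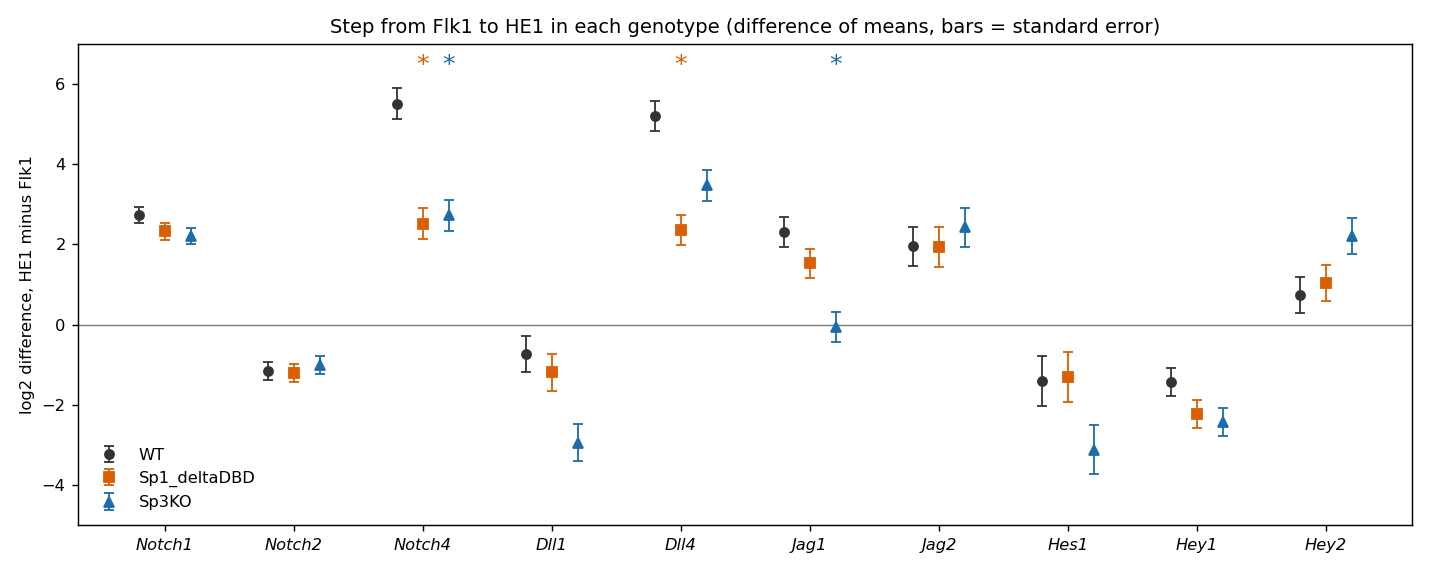
Log2 difference of HE1 minus Flk1 cells for each member in WT (black circles), Sp1_deltaDBD (orange squares) and Sp3KO (blue triangles), with standard errors as bars; an asterisk in the colour of a mutant marks a step that differed from that of WT (limma adjusted p under 0.05). The WT step of Notch4 and Dll4 stands above 5, and the mutant steps of both lie below it.

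Other genes of the pathway were taken from a list of 47, of which 40 were in the table, and the remaining 7 were not analysed here. Of 200 pairs of gene and population, 14 were changed in Sp1_deltaDBD, 5 higher and 9 lower, and 20 in Sp3KO, 12 higher and 8 lower, against the 8.02% and 11.5% given above for all genes.

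Neurl1a, a ubiquitin ligase that acts on Notch ligands, was lower in Sp1_deltaDBD in 4 of 5 populations. In HE1 it had 0.305 and 0.850 FPKM against 4.10 and 3.85 FPKM in WT, and fell by 2.72 (SE 0.38, limma adjusted p = 0.000146). In HE2 it had 0.188 and 0.275 FPKM against 1.99 and 2.82 FPKM, and fell by 2.91 (SE 0.38, limma adjusted p = 7.1e-05). In progenitors it had 0.116 and 0.390 FPKM against 1.79 and 1.66 FPKM, and fell by 2.49 (SE 0.38, limma adjusted p = 0.000462). In each of these populations the mutant samples lay below both WT samples, a separation by which the named genes were chosen. It also fell by 1.84 (SE 0.38, limma adjusted p = 0.00658) in Flk1 cells, a call lost without WT Flk1 replicate 2 (0.116), and it stood at 4.10 and 3.38 FPKM in Sp1_deltaDBD ESC against 3.45 and 2.89 FPKM in WT. The differences with a pseudocount of 1 in HE1, HE2 and progenitors were -1.68, -1.46 and -1.13, and the calls were kept. With the population fitted alone the calls in HE1 (limma adjusted p = 0.0587) and progenitors (0.0885) did not pass, and that in HE2 did.

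Nrarp, a Notch target that feeds back on the receptor's intracellular part, rose in ESC of both mutants. It had 1.97 and 1.49 FPKM in Sp1_deltaDBD and 1.95 and 1.94 FPKM in Sp3KO, against 0.589 and 0.437 FPKM in WT. The rise was 1.58 (SE 0.26, limma adjusted p = 0.000919) in Sp1_deltaDBD and 1.75 (SE 0.26, limma adjusted p = 0.00042) in Sp3KO, and both calls stayed without each sample in turn. The rises were 0.85 and 0.96 with a pseudocount of 1, and the calls were kept. With the population fitted alone the Sp1_deltaDBD ESC call did not pass (limma adjusted p = 0.0752) and the Sp3KO ESC call did. In Sp3KO Flk1 cells Nrarp rose by 1.04 (SE 0.26, limma adjusted p = 0.0137), and in Sp1_deltaDBD HE2 it fell by 0.93 (SE 0.26, limma adjusted p = 0.0283). The first of these was lost without Sp3KO replicate 1 (limma adjusted p = 0.159), WT replicate 1 (0.0516) or WT replicate 2 (0.13), and the second without Sp1_deltaDBD replicate 2 (0.23) or WT replicate 2 (0.201).

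Mfng, a glycosyltransferase that modifies Notch receptors, was lower in Sp1_deltaDBD HE1 and HE2. It had 0.709 and 0.515 FPKM against 2.04 and 2.19 FPKM in HE1, where it fell by 1.65 (SE 0.39, limma adjusted p = 0.0118), and 3.84 and 3.46 FPKM against 9.02 and 16.5 FPKM in HE2, where it fell by 1.72 (SE 0.39, limma adjusted p = 0.00877). Mutant samples were below both WT samples in either population, again a separation by which the named genes were chosen. In Sp3KO Flk1 cells it rose by 1.61 (SE 0.39, limma adjusted p = 0.0117), to 0.583 and 0.575 FPKM from 0.0999 and 0.149 FPKM. The HE1 call was lost without Sp1_deltaDBD replicate 2 (limma adjusted p = 0.122), WT replicate 1 (0.0599) or WT replicate 2 (0.0583), the HE2 call without Sp1_deltaDBD replicate 2 (0.0765) or WT replicate 2 (0.1), and the Flk1 call without any 1 of the 4 samples (0.059 to 0.0889). Its difference with a pseudocount of 1 was -0.95 in HE1, and 0.49 in Sp3KO Flk1 cells, where it did not pass (limma adjusted p = 0.212).

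Sp3KO Flk1 cells held 9 of the 20 changes in that mutant. Of the 40 genes 7 were higher there, against 6.69% of all genes, and 2 were lower. Dll3, a ligand of presomitic mesoderm, had 18.7 and 23.1 FPKM against 5.28 and 3.41 FPKM in WT, and rose by 2.26 (SE 0.53, limma adjusted p = 0.00952). Hes6, an inhibitor of Hes1, had 12.4 and 8.99 FPKM against 5.80 and 4.42 FPKM, and rose by 1.05 (SE 0.22, limma adjusted p = 0.00514). Maml2, a coactivator of the RBPJ complex, had 1.05 and 1.26 FPKM against 0.347 and 0.311 FPKM, and rose by 1.54 (SE 0.33, limma adjusted p = 0.00483). The mutant samples were above both WT samples for each of these genes, a separation by which they were chosen. Maml2 rose in Sp1_deltaDBD Flk1 cells too, by 1.48 (SE 0.33, limma adjusted p = 0.00974), to 1.06 and 1.14 FPKM. Dll3 lost its call without Sp3KO replicate 1 (limma adjusted p = 0.0589), Sp3KO replicate 2 (0.0691) or WT replicate 2 (0.126), Hes6 without Sp3KO replicate 1 (0.103) or WT replicate 2 (0.0999), and Maml2 without WT replicate 2 (0.0611) in Sp3KO and without any 1 of the 4 samples in Sp1_deltaDBD (0.0546 to 0.101). With GC and length correction the difference of Hes6 was 0.55 and did not pass (limma adjusted p = 0.0633). That of Maml2 with a pseudocount of 1 was 0.69 in Sp3KO and 0.66 in Sp1_deltaDBD, where it did not pass (limma adjusted p = 0.0777).

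The gamma-secretase subunit Aph1b fell in Sp3KO Flk1, HE1 and progenitor cells, by 1.43 to 1.54 on the log2 scale (SE 0.40), from levels that were at most 1.35 FPKM on average in WT. Its copy Aph1c rose by 1.67 (SE 0.42) in Sp1_deltaDBD ESC, and reads of the 2 similar genes may have been split, so both are uncertain. Furin, a protease that cuts the Notch precursor, rose by 1.13 (SE 0.30) in Sp3KO ESC, and Maml3 rose by 1.07 (SE 0.31) in Sp1_deltaDBD ESC. The limma adjusted p of these 6 calls lay between 0.0194 and 0.0475, and each was lost without at least 1 sample, with values up to 0.323. Furin differed by 0.69 without WT replicate 2 and Aph1b in progenitors by -0.90 without Sp3KO replicate 1. With a pseudocount of 1 Aph1c (0.36), Maml3 (0.22) and Aph1b in progenitors (-0.39) did not pass and Aph1b in Flk1 cells (-0.71) and HE1 (-0.49) did, and with GC and length correction Aph1b in Flk1 cells did not (limma adjusted p = 0.0576).

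**Figure D5:**
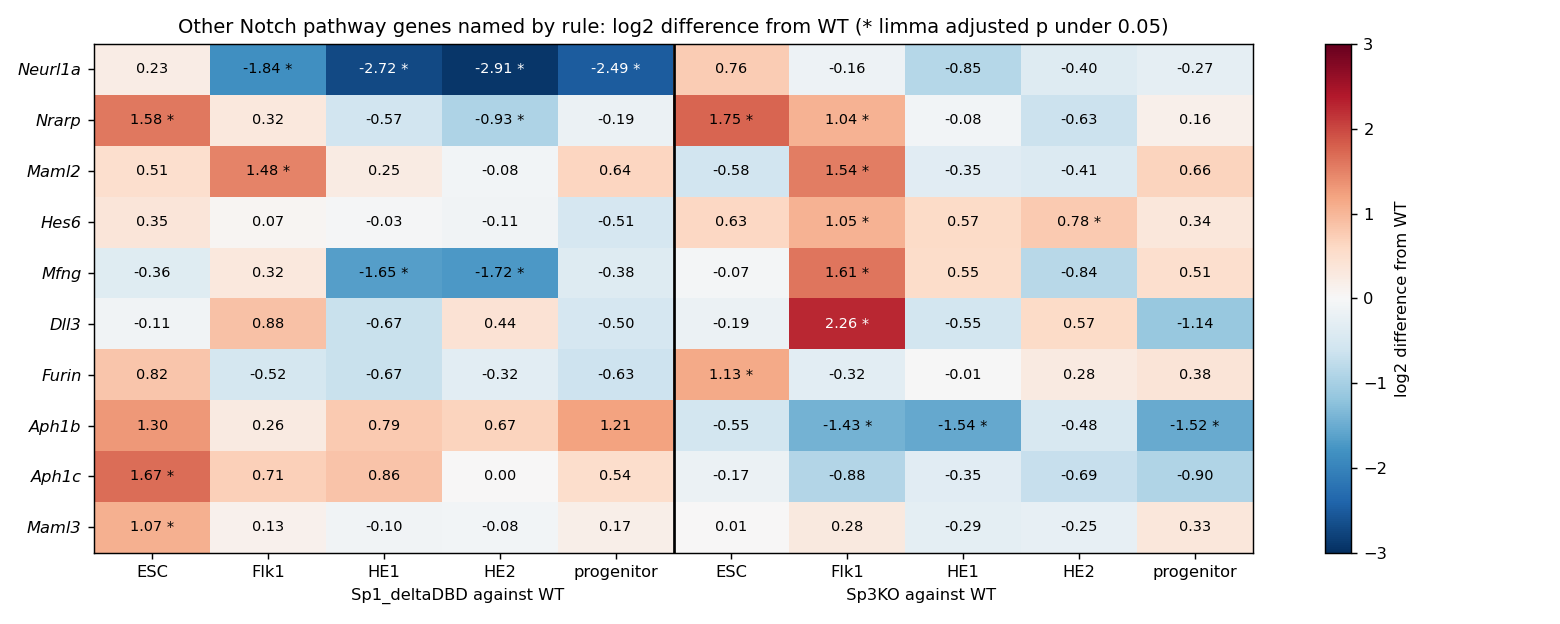
Difference of each mutant from WT on the log2 scale for the 10 other pathway genes named (rows) in the 5 populations (columns), red for higher and blue for lower; asterisks mark limma adjusted p under 0.05. The row of Neurl1a is blue in Sp1_deltaDBD in 4 of 5 populations, and that of Nrarp is red in ESC of both mutants.

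The course of each member over the 15 group means was compared with that of every gene that reached 3 FPKM in at least 1 group. These correlations are descriptions, since groups of 1 population and the quantile normalisation are shared. The genes most like Notch1 were Hspg2, a basement membrane proteoglycan, with r = 0.97, Kctd17 with 0.97 and Nos3, the endothelial nitric oxide synthase, with 0.97. Dll4 was most like Sema3g, an endothelial semaphorin, with r = 0.98, followed by Gorasp2 with 0.98 and Bcl10 with 0.98, and Hey2 was most like Dok4 with 0.98, Pcdhgc3 with 0.98 and Apcdd1 with 0.97. Notch4 was most like Gm53, Sec24d and S100a16, each with r = 0.96. In each of these 4 sets the WT means were highest in HE1 or, for Dok4 and Apcdd1, in Flk1 cells.

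Hes1 was most like the receptor Notch3, with r = 0.93, followed by Nf1 with 0.93 and Hmgcll1 with 0.92, and Hey1 was most like C530008M17Rik with 0.94, Siah1a with 0.92 and Ttc23 with 0.91. Notch2 was most like Mbtps1 with 0.96, Slc7a6 with 0.95 and Vldlr with 0.95. The ligands had Ift46 with 0.95, Elovl4 with 0.94 and Faf2 with 0.93 for Dll1, Vta1 with 0.91, Acot9 with 0.87 and Myo1d with 0.84 for Jag1, and Fam3c with 0.95, Zfp462 with 0.95 and Alas1 with 0.94 for Jag2. Jag1 thus had the lowest of the 10 best correlations. Within the members the highest correlations over the 15 groups were those of Notch4 with Jag2 (r = 0.89), Notch2 with Hey1 (0.89) and Notch1 with Dll4 (0.85), and the lowest was that of Jag2 with Hey1 (-0.58).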

How the data were processed

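RNA from 5 populations in 3 genotypes was sequenced in duplicate with a stranded total RNA kit. Per the submitters' processing notes the tools were HISAT2 2.1.0 and StringTie 1.3.3 with build mm10. The authors calculated a FPKM value per gene, dropped genes that never exceeded 1 FPKM, applied quantile normalisation and deposited the result. Equal lowest values within a sample come from genes at the bottom of the ranking (398 to 1660 genes per sample), so differences among them cannot be read.

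Samples were grouped by their labels. Here limma 3.58.1 (R 4.3.3) was fitted to log2(FPKM + 0.1) as 15 group means with an intensity trend (15 residual and 3.92 prior degrees of freedom) on 14525 genes above 1 FPKM in at least 1 sample. The fit was tested on simulated data. The members and lists were chosen with earlier results of these data known, and the direct comparison of the mutants was added after seeing the data. Named beside the members were pathway genes changed by over 1 on the log2 scale without overlap of mutant and WT samples in a called comparison (10 genes), and the 3 genes most correlated with each member, among genes reaching 3 FPKM in a group mean. Gene positions came from GENCODE M21 and promoters from RefSeq. Alternatives covered the pseudocount, filters, trend, chromosome, GC content and length, replicate block, single populations and each sample left out.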

Additional observations from a re-analysis of the deposited data

Results flagged for a closer look

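The size of a step between populations differed between genotypes for 5 pairs of member and mutant, by limma on the difference of steps. These differences use the same values as the comparisons with WT above. At the step from Flk1 cells to HE1, Notch4 differed from WT by -2.999 on the log2 scale in Sp1_deltaDBD (limma adjusted p = 0.00878) and by -2.79 in Sp3KO (limma adjusted p = 0.00906). Without HE1 replicate 2 of the mutant the adjusted p was 0.0502 and 0.0501. Dll4 differed by -2.84 at that step in Sp1_deltaDBD (limma adjusted p = 0.0108, and 0.0614 without WT Flk1 replicate 2 or 0.0553 without WT HE1 replicate 1). Since Dll4 lay at or near 0 in WT Flk1 cells, the size of this difference depends on the pseudocount, and it was -1.39 with a pseudocount of 1. Jag1 differed by -2.37 at that step in Sp3KO (limma adjusted p = 0.0164, and 0.0731 to 0.0913 without Sp3KO Flk1 replicate 1, WT Flk1 replicate 2 or Sp3KO HE1 replicate 2). At the step from ESC to Flk1 cells, Dll1 differed by 3.43 in Sp3KO (limma adjusted p = 0.0118, and 0.0544 to 0.0794 without Flk1 replicate 2 of Sp3KO, ESC replicate 1 of Sp3KO or WT Flk1 replicate 2). All 5 passed under the other scalings, filters and fits in which the gene was tested.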

How the results depend on the processing

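No change of direction was seen under any alternative. Of the 23 member changes between successive WT populations 21, and of the 16 between mutant and WT 2 (Notch1 in Sp1_deltaDBD progenitors and Jag1 in Sp3KO HE2), passed without each sample in turn, where a lone sample is assumed to vary like the other groups. Leaving out a sample, the number of members called in Sp1_deltaDBD was 0 in ESC and Flk1 cells, 1 to 2 in HE1 (3 in the full fit), 0 to 2 in HE2 (1) and 1 to 2 in progenitors (2). In Sp3KO it was 0 in ESC, 0 to 1 in Flk1 cells (4), 0 to 1 in HE1 (2), 1 to 2 in HE2 (1) and 0 to 2 in progenitors (3). For differences between steps it was 1 to 2 in Sp1_deltaDBD (2) and 1 to 3 in Sp3KO (3), and for other pathway pairs 11 to 16 in Sp1_deltaDBD (14) and 11 to 21 in Sp3KO (20), where Flk1 samples Sp3KO replicate 1 and WT replicate 2 gave 12 and 11.

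With each population alone the counts were 1 in Sp1_deltaDBD Flk1 cells, 0 in HE1, HE2 and progenitors, 1 in Sp3KO Flk1 cells and 0 in HE1, HE2 and progenitors, and 4 and 9 for other pathway pairs; with fewer samples the fit has fewer degrees of freedom. With a pseudocount of 1 they were 1 in Sp1_deltaDBD Flk1 cells, 2 in HE2 and 5 for steps in Sp3KO, and 3 of the 16 member changes were lost (Notch4 and Dll4 in Sp3KO Flk1 cells and Hes1 in Sp3KO progenitors). With GC and length correction they were 3 in Sp1_deltaDBD HE2 and 2 in Sp3KO Flk1 and HE2, and with chromosome centring 2 in Sp1_deltaDBD HE2; the cause was not tested. A mean above 1 FPKM left Dll1 and Dll4 untested and gave 2 in Sp3KO Flk1 cells and 1 for steps in Sp1_deltaDBD. By a fold above 2 alone, with no test, the counts were 2, 3, 2 and 4 in Sp1_deltaDBD ESC, Flk1 cells, HE2 and progenitors, and 1, 4 and 2 in Sp3KO ESC, HE1 and HE2. With the replicate number as a block they were 1 in Sp1_deltaDBD ESC, 2 in HE2, 4 in Sp3KO HE1 and 2 in HE2, and Dll4 in Sp3KO Flk1 cells was the 1 member change lost (limma adjusted p = 0.0752). The labels do not say what a number marks, and with 2 numbers a group the data do not settle whether it pairs the samples. Sp1_deltaDBD repeated the replicate difference of WT in HE1, HE2 and progenitors. Its smooth muscle markers summed to 990.4 and 248.6, 368.7 and 37.7, then 145.0 and 20.2 FPKM. Its epithelial sums were also higher in replicate 1, and its Hes1 in replicate 2. In Sp3KO the smooth muscle sums were 208.1 and 138.6, 155.7 and 135.3, then 66.9 and 80.8 FPKM. The main fit has no term for the number. Around the group means, samples with 1 number correlated by 0.169 to 0.443 between WT and Sp1_deltaDBD and by -0.03 to 0.151 between WT and Sp3KO. Between neighbouring sorted populations of a genotype (HE1 with HE2, HE2 with progenitors) they correlated by 0.377 and 0.38 in WT, 0.543 and 0.433 in Sp1_deltaDBD and 0.131 and 0.0317 in Sp3KO, while the steps were tested as independent groups; with the block all 23 WT steps were kept. FPKM without counts leaves the precision of levels under 1 FPKM unknown.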

Other observations

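Notch3, the remaining Notch receptor, was chosen for this description after its values were seen. In WT cells it had 7.71 and 5.85 FPKM in ESC, 25.2 and 29.99 in Flk1 cells, 16.5 and 13.7 in HE1, 7.08 and 6.89 in HE2, then 6.89 and 6.10 in progenitors, so that Flk1 cells stood highest. It was lower in progenitors of both mutants, at 3.24 and 5.10 FPKM in Sp1_deltaDBD (a log2 difference of -0.66, SE 0.20, limma adjusted p = 0.042) and at 3.73 and 3.20 FPKM in Sp3KO (-0.89, SE 0.20, limma adjusted p = 0.00851). In Sp3KO HE1 it had 9.70 and 9.18 FPKM, a difference of -0.66 (SE 0.20, limma adjusted p = 0.0351), and in Sp1_deltaDBD ESC it had 10.8 and 10.9 FPKM, a difference of 0.69 (SE 0.20, limma adjusted p = 0.044). Mutant and WT samples did not overlap in these 4 comparisons, which is common with 2 samples a group. Of the 40 listed pathway genes, Notch3 included, 18 did not overlap in Sp1_deltaDBD ESC and 15 in Sp1_deltaDBD progenitors. In Sp3KO 24 of them did not overlap in HE1 and 20 in progenitors. The share of all genes without overlap was not counted, so these counts are no result about the pathway. Each call was lost without at least 1 sample, with limma adjusted p up to 0.351 in Sp1_deltaDBD ESC (without WT replicate 2), 0.395 in Sp1_deltaDBD progenitors (a value of -0.34 without Sp1_deltaDBD replicate 1), 0.236 in Sp3KO HE1 (without WT replicate 1) and 0.08 in Sp3KO progenitors (without Sp3KO replicate 2). With GC and length correction the Sp1_deltaDBD differences were 0.38 in ESC and -0.40 in progenitors and did not pass (limma adjusted p = 0.22 and 0.163). None of these calls passed with the population fitted alone (limma adjusted p of 0.128 to 0.349). With the replicate number as a block only Sp3KO progenitors passed (0.0182). Sp1_deltaDBD ESC also failed with chromosome centring (0.0933), and Sp1_deltaDBD progenitors with a pseudocount of 1 (0.0513).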
